A study of Mus musculus with 1 sample.

Results

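The genes described here are 8 imprinted genes with known roles in growth control: Cdkn1c, H19, Meg3, Grb10, Ndn, Plagl1, Impact and Igf2r. They were taken by symbol from the 32285 genes of a single-cell RNA-seq count matrix of mouse bone marrow, and each symbol matched 1 row. Their levels were compared across stem, multipotent and committed cells gated by marker genes, and their joint detection was examined in cells with a transcript of Procr, the endothelial protein C receptor that marks blood stem cells.

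An imprinted gene is transcribed mainly from the copy inherited from a single parent, under the control of DNA methylation set in the egg or sperm. Many imprinted genes act on fetal and placental growth, where maternally expressed genes such as Cdkn1c, Igf2r and Grb10 tend to restrain it. In blood, Cdkn1c and the H19-Igf2 and Dlk1-Meg3 loci are known for their part in the quiescence and maintenance of long-term stem cells. The counts hold no information on alleles, so imprinting itself was not measured.

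The sample is 1 library of control cells of the C57BL/6 strain, sorted as Lin-Kit+ from femora and tibiae, the fraction of marrow with the stem and progenitor cells of blood. The cells carry floxed Brd9 alleles (CD45.2(+) Brd9fl/fl) and the methods name no Cre for this control. The mice had received 3 injections of polyinosinic-polycytidylic acid (pIpC), an inducer of interferon, at 20 mg/kg every other day, and cells were prepared 8 weeks later. The labels name CD45.1(+) CD45.2(-) recipients injected 4 weeks after transplantation, whereas the methods describe primary mice, and which applies was not settled. The Brd9-deleted library of the study is not analysed here. A single library gives no replicates, so the values are set side by side untested. All intervals are exact 95% intervals that cover counting error only, and differences between mice, sorts or libraries are not in them.

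The study's cell filter kept 7645 of 8817 barcodes, with a median of 18696 unique molecular identifiers (UMIs, tags by which amplified copies of a transcript are counted once) and a range of 1592 to 49991. Cells were called committed when the summed markers of a lineage passed a minimum set for that lineage, stem when they passed none and held UMIs of at least 3 of 7 stem markers (Procr, Hlf, Mecom, Fgd5, Slamf1, Hoxb5 and Mllt3), and multipotent when they passed none, held fewer stem markers, and had Flt3 with at least 2 of Flt3, Cd34 and Cd48. This gave 867 stem-gated, 206 multipotent-gated and 5970 committed-gated cells, and 602 cells passed no gate. The committed cells were 2580 neutrophil, 1306 erythroid, 1183 monocyte, 462 megakaryocyte, 255 basophil or mast, 118 lymphoid, 29 eosinophil, 21 dendritic and 16 T or NK cells by gate. Levels are summed UMIs of a gate over all its UMIs, as CPM (counts per 1000000 UMIs). The stem markers summed to 959.5 CPM in the stem gate, 238.0 in the multipotent gate and 58.4 in the committed gate, which describes the gating and is not a result. The stem gate has a soft edge, since 319 of its cells held exactly 3 stem markers and 284 cells outside it held 2. Of 10 stromal and endothelial markers, which are sources of several imprinted transcripts, Cxcl12, Lepr, Cdh5, Pdgfra and Adipoq were at 0 in the stem gate. The list summed to 25.3 CPM there, nearly all from Pdgfrb (9.81 CPM), Col1a2 (8.41 CPM) and Kdr (6.90 CPM), against 36.0 CPM in multipotent-gated and 8.42 CPM in committed-gated cells. Its part in the results was not tested.

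Stem-gated cells had the highest level of 5 of the 8 genes among the gates with at least 50 cells, and of Igf2r too, although the erythroid gate lay close to it. H19 and Plagl1 were near the detection limit. Of the 6 genes with at least 50 UMIs in the stem and committed gates together, 6 were at least 2-fold higher in stem-gated than in committed-gated cells. Over all 13307 genes tested in the same way, 25.7% passed that fold. The median ratio of the 6 genes was 15.7, and that of all tested genes was 1.245. The genes were chosen with earlier results of these data known, so this is a description and no test. The ratios fell into a group above 25 (Meg3, Cdkn1c and Ndn) and a group between 3 and 5 (Grb10, Impact and Igf2r).

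**Figure D1:**
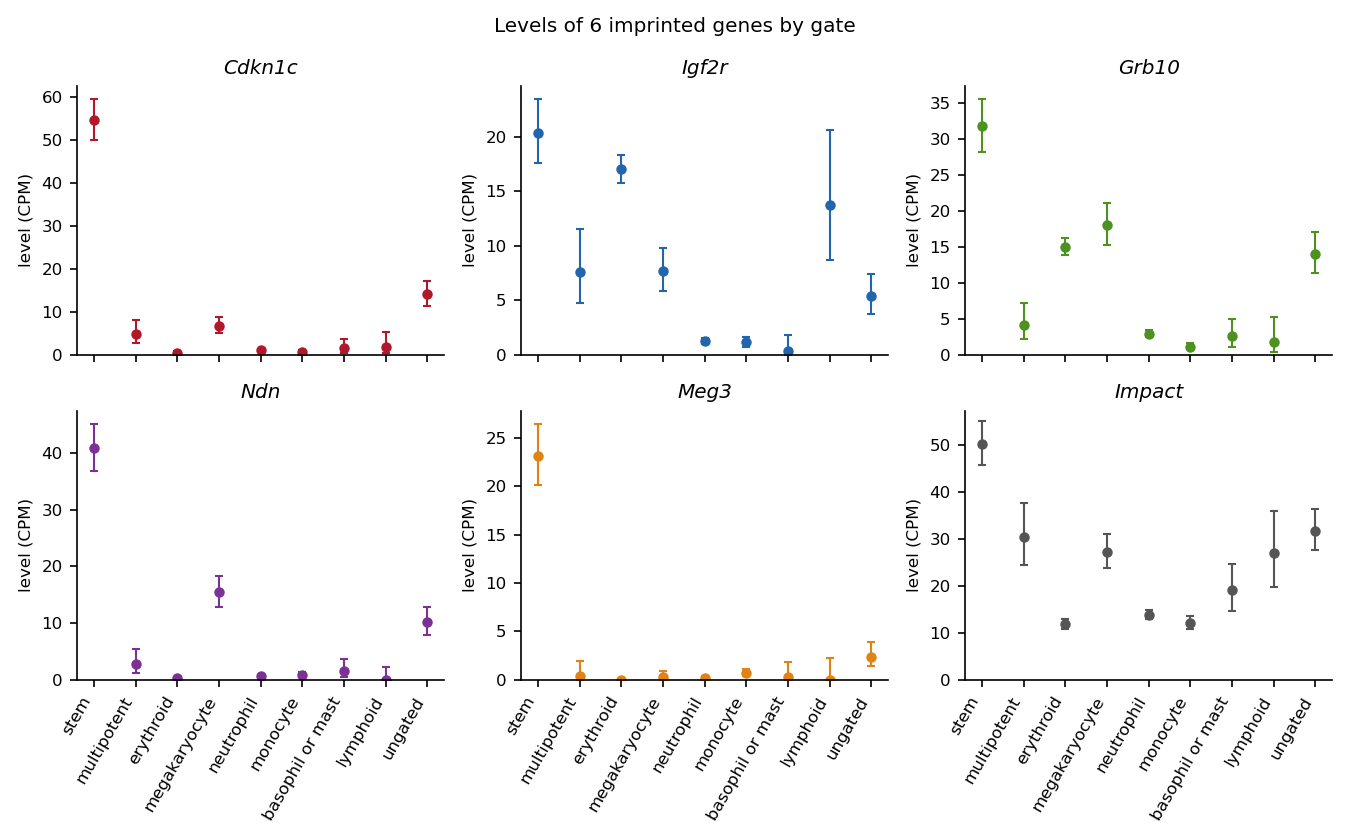
Level of 6 imprinted genes (CPM, linear axis from 0) in the gates with at least 50 cells and in ungated cells, with exact Poisson 95% intervals. Cdkn1c and Meg3 are far higher in the stem gate than in any other gate shown, and Ndn is also found in megakaryocyte cells (15.4 CPM). Igf2r in erythroid cells (17.0 CPM) and Grb10 in megakaryocyte (18.04 CPM) and erythroid cells (15.03 CPM) are nearer to their stem levels.

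Cdkn1c encodes p57, an inhibitor of cyclin-dependent kinases that holds cells out of division, and lies on chromosome 7 at 143458339 to 143461050, minus strand (GRCm38). Stem-gated cells held 507 of its 785 UMIs, or 64.6%, from 338 cells. Its level was 54.6 CPM (49.98 to 59.6) in stem-gated cells, 4.85 CPM (2.65 to 8.14) in multipotent-gated cells and 1.27 CPM (1.09 to 1.48) in committed-gated cells. The stem level was 43.0 times the committed level (36.0 to 51.5), and 49 of the 13307 tested genes had a higher ratio. Among the lineages with at least 50 cells, the megakaryocyte gate was highest at 6.81 CPM (5.16 to 8.82) and the erythroid gate lowest at 0.511 CPM (0.312 to 0.790). The neutrophil gate had 1.13 CPM and the monocyte gate 0.748 CPM, with intervals that overlap. Cells that passed no gate stood between, at 14.1 CPM (11.4 to 17.3).

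H19, a noncoding RNA of the same chromosome that acts against growth and sits beside Igf2, gave 1 UMI in the whole set of cells kept. That UMI came from a stem-gated cell, where 3 UMIs would have given 0.323 CPM. Igf2, the growth factor whose imprint is shared with H19, gave 5 UMIs, all in stem-gated cells. H19 lies 880.2 kb from Cdkn1c. At this depth no level can be given for it in any gate.

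Igf2r encodes the receptor that carries insulin-like growth factor 2 to the lysosome, and spans 12682406 to 12769664 on chromosome 17, minus strand (GRCm38). Its level was 20.4 CPM (17.6 to 23.5) in stem-gated cells, 7.62 CPM (4.78 to 11.5) in multipotent-gated cells and 6.45 CPM (6.02 to 6.89) in committed-gated cells. The pooled committed level hid a wide spread, since the erythroid gate had 17.0 CPM (15.7 to 18.3) from 665 UMIs while the neutrophil gate had 1.26 CPM, the monocyte gate 1.14 CPM and the basophil or mast gate 0.319 CPM from 1 UMI. The stem level was 1.198 times the erythroid level (1.01 to 1.41) and 16.2 times the neutrophil level (12.3 to 21.6). The lymphoid gate had 13.8 CPM (8.73 to 20.7), and its ratio to the stem gate had an interval that included 1 (0.957 to 2.39). In dendritic cells 6 UMIs gave 25.4 CPM, with an interval of 9.34 to 55.4. When both gates and levels came from cells thinned to 5000 UMIs, its stem level was 7.30 times the committed level, against 3.16 (2.69 to 3.70) otherwise.

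Airn, the antisense transcript that starts within Igf2r and silences the paternal Igf2r copy, had 10.8 CPM in stem-gated and 1.17 CPM in committed-gated cells, a ratio of 9.24 (7.12 to 11.96). In erythroid-gated cells, where Igf2r was near its stem level, Airn was at 2.15 CPM (1.71 to 2.66). The 10x 3′ chemistry keeps the strand of the transcript, and Cell Ranger by default counts reads in the sense direction of a gene.

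The upstream sequences of Igf2r and Meg3 are shown because Igf2r was found in erythroid cells near its stem level and Meg3 was not found there. RefSeq windows on GRCm38.p6 were found for 5 of the 8 genes, and these are the windows that lie outside the GENCODE gene. Each sequence is the 250 bases before the start site, 5′ to 3′ on the strand of the gene. Capitals mark matches, on either strand, to the cyclic AMP response element (TGACGTCA), the E-box (CACGTG), the CCAAT box (whose letters are its name), the TATA box (TATAAA) and the GC box (GGGCGG). Overlapping matches run together.
Igf2r (chr17:12769707-12769956, minus strand): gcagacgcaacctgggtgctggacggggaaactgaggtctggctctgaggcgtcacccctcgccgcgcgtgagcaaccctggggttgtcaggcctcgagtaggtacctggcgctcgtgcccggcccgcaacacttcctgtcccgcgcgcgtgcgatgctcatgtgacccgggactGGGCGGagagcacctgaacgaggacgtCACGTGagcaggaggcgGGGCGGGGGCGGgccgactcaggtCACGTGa
Meg3 (chr12:109540746-109540995, plus strand): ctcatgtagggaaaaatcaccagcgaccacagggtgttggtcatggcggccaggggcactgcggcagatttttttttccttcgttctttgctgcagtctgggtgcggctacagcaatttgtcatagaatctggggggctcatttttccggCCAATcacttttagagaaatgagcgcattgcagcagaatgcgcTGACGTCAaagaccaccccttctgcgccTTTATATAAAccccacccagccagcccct
The Igf2r window is rich in CpG dinucleotides, with 27 of them and an observed-over-expected ratio of 0.913, above 89.2% of all 32851 windows. It holds 2 E-boxes and 3 GC boxes, motifs present in 6.02% and 32.7% of all windows. The Meg3 window has 10 CpG dinucleotides and a ratio of 0.584, above 65.0% of windows. It holds a cyclic AMP response element at 57 bases, a CCAAT box at 100 bases and TATA boxes at 29 and 25 bases before the start, counted from the first base of each match. These are found in 1.546%, 33.8% and 12.4% of all windows. A match is a description of the letters and not evidence of binding.

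Grb10 encodes an adaptor that binds the insulin and insulin-like growth factor receptors and dampens their signal. It spans 11930508 to 12038683 on chromosome 11, minus strand (GRCm38). Stem-gated cells had 31.8 CPM (28.3 to 35.6), multipotent-gated cells 4.16 CPM (2.15 to 7.26) and committed-gated cells 7.17 CPM (6.73 to 7.64). Of the 5 genes tested it had the lowest ratio of multipotent-gated to committed-gated cells, 0.579 (0.298 to 1.02). The megakaryocyte gate had 18.04 CPM (15.3 to 21.2) and the erythroid gate 15.03 CPM (13.8 to 16.3), whose intervals overlap. The neutrophil gate had 2.92 CPM, the monocyte gate 1.14 CPM and the lymphoid gate 1.80 CPM from 3 UMIs. The stem level was 1.76 times the megakaryocyte level (1.44 to 2.16) and 2.11 times the erythroid level (1.83 to 2.44), but 27.8 times the monocyte level (18.6 to 43.3). In 29 eosinophil-gated cells 10 UMIs gave 32.9 CPM (15.8 to 60.4).

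Plagl1 encodes a zinc finger transcription factor that regulates other imprinted genes. It gave 12 UMIs in 9 cells, all of them committed-gated, and 8 of the 12 came from 5 megakaryocyte-gated cells (0.956 CPM, 0.413 to 1.88). No UMI was found in the 867 stem-gated cells, where 3 UMIs would have given 0.323 CPM. The gene spans 13060504 to 13131694 on chromosome 10, plus strand (GRCm38).

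Ndn encodes necdin, a protein of the MAGE family that restrains proliferation and binds p53 and E2F1. It lies at 62346569 to 62350262 on chromosome 7, plus strand (GRCm38). Stem-gated cells had 40.8 CPM (36.8 to 45.2), multipotent-gated cells 2.77 CPM (1.196 to 5.46) and committed-gated cells 1.52 CPM (1.32 to 1.74). The megakaryocyte gate held 129 of the 202 committed UMIs and reached 15.4 CPM (12.9 to 18.3), so that the stem level was 2.65 times as high (2.16 to 3.26). The erythroid gate had 0.230 CPM (0.105 to 0.437), and the stem level was 177.5 times that (92.5 to 391.2). No UMI was found in 118 lymphoid-gated cells. The stem level would be 22.7-fold higher if 3 UMIs are taken for the lymphoid gate as a whole, and the exact interval of the ratio starts at 18.4. Ndn thus differed from Grb10, which was nearly as high in erythroid as in megakaryocyte cells.

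Meg3, a noncoding RNA of the Dlk1-Meg3 locus, spans 109541001 to 109571726 on chromosome 12, plus strand (GRCm38). It had 23.2 CPM (20.2 to 26.5) in stem-gated cells, from 215 of 262 UMIs. Committed-gated cells had 0.226 CPM (0.152 to 0.322) and multipotent-gated cells 0.346 CPM from 1 UMI. The stem level was 102.7 times the committed level (69.9 to 155.9), and 1 of 13307 tested genes had a higher ratio. In 1306 erythroid-gated cells, the most deeply sequenced gate, no UMI was found. A level of 3 UMIs over the gate (0.0767 CPM) would put the stem level 302.1-fold higher, and the exact interval of the ratio starts at 243.6. Of the 30 committed UMIs, 16 were in 5 monocyte-gated cells, and 10 of these came from 1 cell. With doublet calls removed the ratio of stem to committed cells was 237.3 (133.0 to 466.5).

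Meg3 was concentrated in few cells. Of 867 stem-gated cells 73 held it (8.42%), with 2.95 UMIs per positive cell, and 31 of the 73 held at least 3 UMIs, up to 11. For Cdkn1c, Ndn, Impact, Grb10 and Igf2r the mean was below 1.6 UMIs per positive stem-gated cell. Cdkn1c was found in 338 stem-gated cells, and 39 of them (11.5%) had at least 3 UMIs, against 42.5% for Meg3. The 10 stem-gated cells with most Meg3 gave 36.3% of its stem UMIs, against 9.07% for Cdkn1c.

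The neighbours of Meg3 were rarer. Rian, 32.2 kb from Meg3, gave 33 of its 43 UMIs in stem-gated cells, and Mirg gave 6 of 7. Dlk1, the protein-coding gene of the locus that is expressed from the paternal copy, gave 17 of 34 UMIs in stem-gated cells. None of the 3 reached 50 UMIs in the gates compared, so no ratio is read for them.

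Impact encodes a protein that restrains the kinase GCN2 and so affects translation under amino acid shortage. It lies on chromosome 18 at 12955852 to 12992950, plus strand (GRCm38). It was above 10 CPM in every gate, with 50.3 CPM (45.9 to 55.1) in stem-gated, 30.5 CPM (24.4 to 37.6) in multipotent-gated and 14.1 CPM (13.5 to 14.8) in committed-gated cells. The committed lineages with at least 50 cells ran from 11.8 CPM in erythroid to 27.2 CPM in megakaryocyte cells, and 7 UMIs in 16 T or NK cells gave 54.4 CPM (21.9 to 112.0). Neutrophil (13.9 CPM) and monocyte (12.1 CPM) cells were close to the erythroid level, and lymphoid cells (26.9 CPM, 19.7 to 36.0) could not be told apart from megakaryocyte cells (23.8 to 31.0). The stem level was 3.56 times the committed level (3.21 to 3.94).

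The multipotent gate was set against the stem and committed gates. It needs Flt3, and its lymphoid markers summed to 293.7 CPM, against 46.1 CPM in the stem gate. It was not shown to lie on the path to erythroid or megakaryocyte cells. A step here is therefore a difference between gates and not a stage of a common path. From stem to multipotent cells, 5 of the 6 tested genes were at least 2-fold lower, a fold that 10.2% of 10675 tested genes passed. These 5 reached 50 UMIs only through the stem gate, with 1 (Meg3) to 22 (Igf2r) UMIs in multipotent-gated cells. Impact had 88 UMIs there and did not pass. The minimum thus favours genes high in the stem gate, and the count is a description only. The ratio of stem to multipotent cells was 66.9 for Meg3 (11.9 to 2654, from 1 multipotent UMI), 14.7 for Ndn (7.40 to 34.4), 11.3 for Cdkn1c (6.65 to 20.8), 7.65 for Grb10 (4.31 to 14.97) and 2.67 for Igf2r (1.71 to 4.37). For Impact it was 1.65 (1.31 to 2.10). From multipotent to committed cells, Cdkn1c (3.82, 2.04 to 6.58) and Impact (2.15, 1.72 to 2.67) passed 2-fold, 2 of 5 tested genes, beside 16.3% of 13004 genes. Ndn (1.82, 0.777 to 3.66) and Igf2r (1.18, 0.737 to 1.80) had intervals that include 1. Thus Impact fell in similar steps on either side of the multipotent gate, while the larger step of Grb10 lay between stem and multipotent cells, and so did that of Ndn with these gates.

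The multipotent gate is small, and the step sizes depend on it. With the 602 ungated cells counted as multipotent, an alternative chosen after seeing the data, the stem-to-multipotent ratio was 4.81 for Cdkn1c, 5.16 for Ndn and 2.88 for Grb10, and the multipotent-to-committed ratio of Grb10 became 1.54 (1.247 to 1.88). That of Ndn was then 5.21 (3.95 to 6.81), so its steps on either side of the multipotent gate were then of like size. Impact passed 2-fold from stem to multipotent cells with gates and levels from thinned cells (2.39, 1.54 to 3.88) and with graph clusters (2.27, 1.96 to 2.62), which made all 6 genes pass. With graph clusters in place of gates, Igf2r was 6.16 times higher in stem than in multipotent cells, and 0.562 (0.417 to 0.742) in multipotent over committed cells, the other side of 1. With gates and levels from thinned cells its multipotent over committed ratio was 3.41 (1.77 to 6.04), so its direction depends on the gates.

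**Figure D2:**
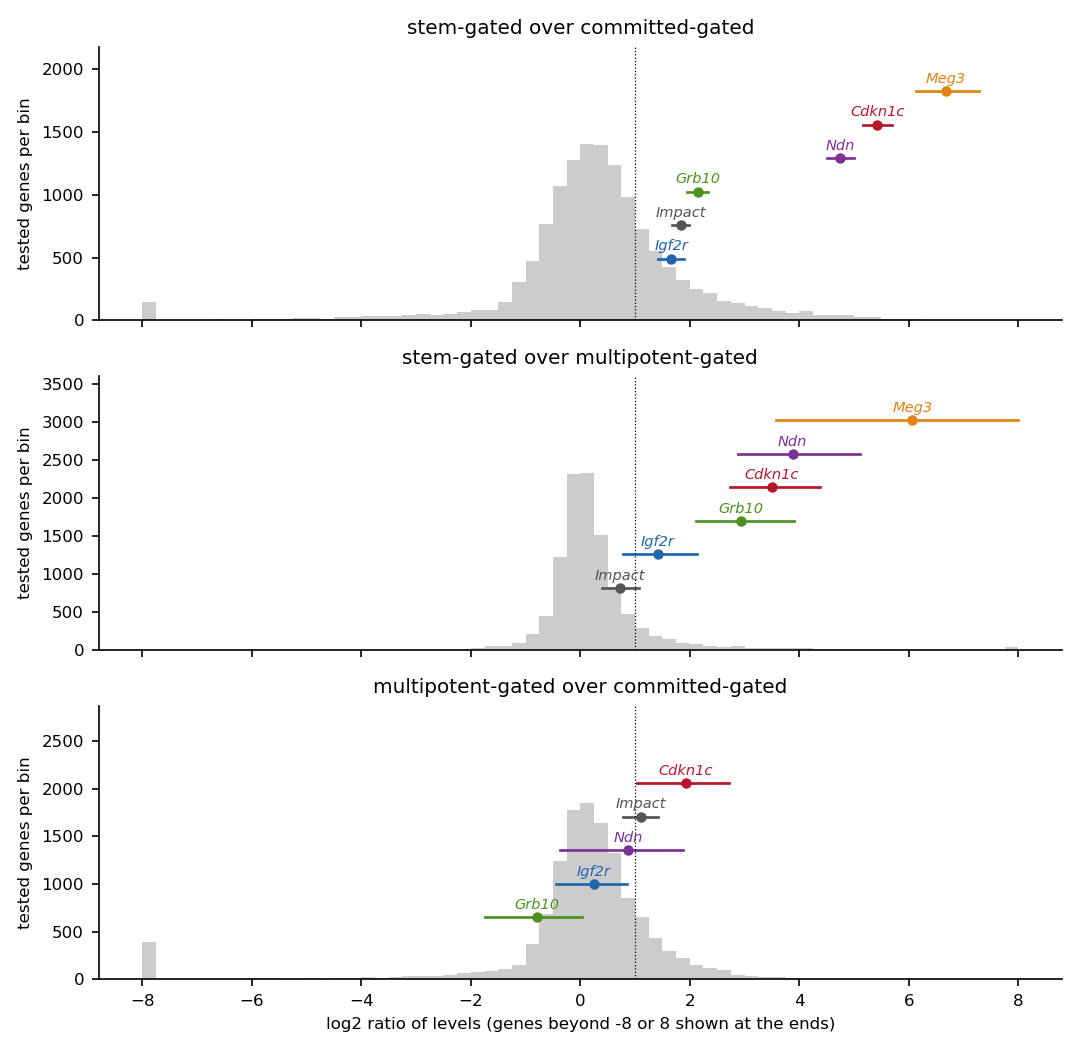
Grey bars count all tested genes by log2 ratio of their levels between a pair of gates, and coloured points with lines give the tested imprinted genes with exact 95% intervals (their height on the axis has no meaning). The dotted line is 2-fold. All 6 genes lie right of it for stem over committed cells, where 25.7% of tested genes do.

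The share of cells with a UMI depends on depth, and stem-gated cells were shallow (median 9057 UMIs, against 21080.5 in committed-gated cells). Each cell was therefore thinned at random to 5000 UMIs, which left out 10 stem-gated and 48 committed-gated cells. The thinned share was higher in stem-gated than in committed-gated cells, with intervals that do not overlap, for 6 of the 8 genes, which are the 6 with at least 50 UMIs. Of the 13307 genes tested, 38.9% passed the same comparison. Thinned shares in stem against committed cells were 24.2% and 0.709% for Cdkn1c, 24.6% and 6.65% for Impact, 18.9% and 0.811% for Ndn, 15.1% and 3.33% for Grb10, 11.1% and 2.09% for Igf2r, and 5.601% and 0.152% for Meg3. For 2 of them the order against erythroid cells (median 31733 UMIs) turned with thinning. Igf2r was found in 35.7% of erythroid-gated and 18.5% of stem-gated cells before thinning, and in 6.55% and 11.1% after it. For Grb10 these shares were 29.4% and 26.0% before, and 7.48% and 15.1% after. Thinned shares in the erythroid gate were 0.308% for Cdkn1c and 0.154% for Ndn, and 0 of 1297 cells held Meg3. The stem marker Hlf was found there in 1.002% of thinned cells. Of the 7 stem markers, 6 were below 3 CPM in the erythroid gate, and Mllt3 was at 83.1 CPM.

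**Figure D3:**
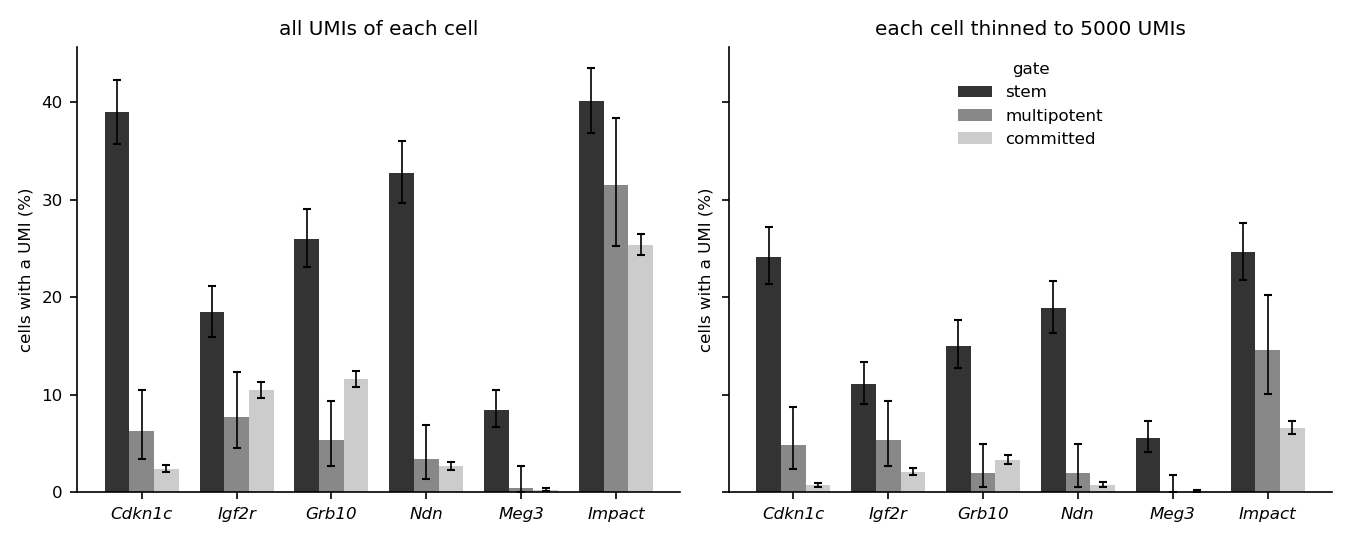
Share of stem-gated, multipotent-gated and committed-gated cells with at least 1 UMI of each gene (percent, bars from 0), before and after thinning each cell to 5000 UMIs, with exact Clopper-Pearson 95% intervals. After thinning the stem share is above the committed share for each of the 6 genes shown, from 5.601% against 0.152% for Meg3 to 24.6% against 6.65% for Impact.

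Since several of these genes restrain division, their levels were set beside 12 genes of the G2 and M phases (such as Mki67, Top2a and Ccnb1) within the stem gate. Of 867 stem-gated cells, 266 held no G2/M UMI, 235 held 1 and 366 held at least 2. Meg3 was at 35.3 CPM (80 UMIs) in cells without a G2/M UMI and 10.2 CPM (50 UMIs) in cells with at least 2, a ratio of 3.46 (2.40 to 5.02). Cdkn1c was at 79.1 and 41.5 CPM, a ratio of 1.90 (1.549 to 2.34). Ndn differed by 1.62 times (1.27 to 2.06) and Impact by 1.36 times (1.08 to 1.70). For Grb10 (1.21, 0.898 to 1.62) and Igf2r (1.21, 0.841 to 1.73) the interval included 1. In cells with 1 G2/M UMI, Meg3 was at 39.9 CPM (85 UMIs), not below cells with none, while Cdkn1c (58.7 CPM) lay between the end classes. Meg3 was thus 1 of 6 tested genes at least 2-fold higher in cells without a G2/M UMI, beside 1.33% of 9694 genes. The cells with at least 2 G2/M UMIs were deeper (median 12574 against 8040 UMIs) and held fewer stem marker transcripts, with Procr at 64.4 against 140.1 CPM and Hlf at 339.2 against 480.7 CPM. The part of depth and of these markers in the result was not tested.

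**Figure D4:**
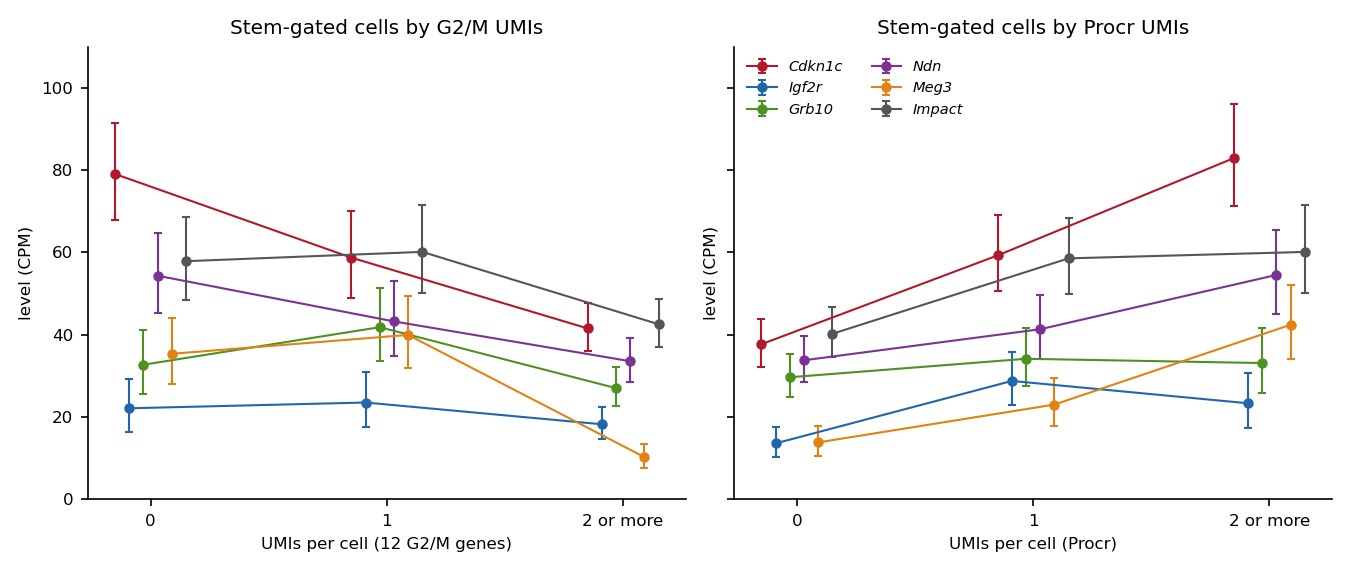
Level (CPM, axis from 0) of 6 imprinted genes in stem-gated cells by their number of G2/M UMIs and of Procr UMIs, with exact Poisson 95% intervals. Cdkn1c goes from 79.1 to 41.5 CPM with more G2/M UMIs and from 37.7 to 83.0 CPM with more Procr UMIs, and Grb10 has overlapping intervals between the end classes in both plots.

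The stem gate was not uniform for these genes. Stem-gated cells with Procr had higher Meg3 (31.5 against 13.8 CPM, 2.28 times, 1.68 to 3.13), Igf2r (1.95 times, 1.42 to 2.69), Cdkn1c (1.85 times, 1.53 to 2.24), Impact (1.47 times, 1.22 to 1.79) and Ndn (1.39 times, 1.13 to 1.73) than those without it. For Grb10 the ratio was 1.14 (0.897 to 1.44). Hlf rose over the same split, with 302.4 CPM at 0 Procr UMIs, 476.9 CPM at 1 and 524.9 CPM at 2 or more. Median depth went the other way, with 11096, 8607 and 8267 UMIs. The share of all tested genes with such ratios is not given for the Procr or Vwf split, so the rise is not shown to be particular to these genes. Across stem-gated cells with 3, 4, 5 and 6 stem markers, Meg3 had 10.9, 27.1, 28.1 and 61.0 CPM, and Igf2r 12.5, 22.6, 24.6 and 38.7 CPM. Grb10 over the same classes had 26.7, 36.3, 35.3 and 25.3 CPM and followed no order. Only 12 cells held all 7 markers, and they gave 1 Meg3 UMI. Between stem-gated cells with and without Vwf, which marks platelet-biased stem cells, Meg3 differed by 1.91 times (1.43 to 2.58) and Ndn by 1.57 times (1.27 to 1.95), both higher with Vwf, and Cdkn1c by 1.254 times (1.05 to 1.501). Impact (0.923, 0.766 to 1.11) and Igf2r (1.08, 0.806 to 1.46) did not differ beyond counting error.

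Joint detection was examined in the 706 cells with a Procr UMI, of which 512 were stem-gated, 157 committed-gated, 20 multipotent-gated and 17 ungated. Of these, 433 held just 1 Procr UMI, and background RNA shared between droplets was not estimated. The 706 cells had a median depth of 9108.5 UMIs. Impact was found in 39.8% of them, Cdkn1c in 37.1%, Ndn in 30.9%, Grb10 in 23.4%, Igf2r in 18.6% and Meg3 in 8.22%. After thinning to 5000 UMIs (698 cells) these shares were 22.2%, 21.9%, 17.0%, 13.04%, 11.5% and 5.44%. In Procr-negative cells thinned in the same way they were 8.03% for Impact, 2.09% for Cdkn1c, 1.84% for Ndn, 4.13% for Grb10, 2.45% for Igf2r and 0.3505% for Meg3. H19 and Plagl1 were each found in 1 Procr-positive cell. Over all cells Cdkn1c went with the number of Procr UMIs, from 2.69 CPM with 0 to 35.5 CPM with 1, 52.5 CPM with 2 and 77.1 CPM with at least 3.

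Of the 15 pairs of the 6 detected genes, 12 were found together in more thinned Procr-positive cells than the product of their shares gives. The median of observed over product was 1.24, with a range of 0.689 to 2.16. Pairs of the other 6 stem markers in the same cells had a median of 1.16, and 15 of 15 lay above the product, so the pairs of imprinted genes are not set apart by this measure. By their interval, 2 of the 15 pairs of imprinted genes lay above, beside 9 of 15 stem marker pairs. Meg3 and Ndn were the pair with the highest value, found together in 14 cells where the product gives 6.48, and in 29 cells against 17.9 without thinning. Without thinning, Ndn was found with Cdkn1c in 105 cells against 80.9 and Meg3 with Cdkn1c in 33 against 21.5. Cdkn1c was present in 56.9% (43.2 to 69.8) of Procr-positive cells with Meg3 and in 35.3% (31.7 to 39.2) of those without, also before thinning. Without thinning, 5 of the 15 pairs of imprinted genes lay above by their interval, beside 14 of 15 stem marker pairs. Meg3 and Igf2r lay below the product, with 9 cells against 10.8 without thinning and 3 against 4.36 with it. Within cells both Procr-positive and stem-gated, 9 of 15 thinned pairs were above the product with a median of 1.04. Depth moved with the measure, as 9 of 15 pairs were above the product in the shallower 353 Procr-positive cells and 15 of 15 in the deeper 353, and its part was not tested. A count of shared detections in sparse data is a description and carries no test.

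**Figure D5:**
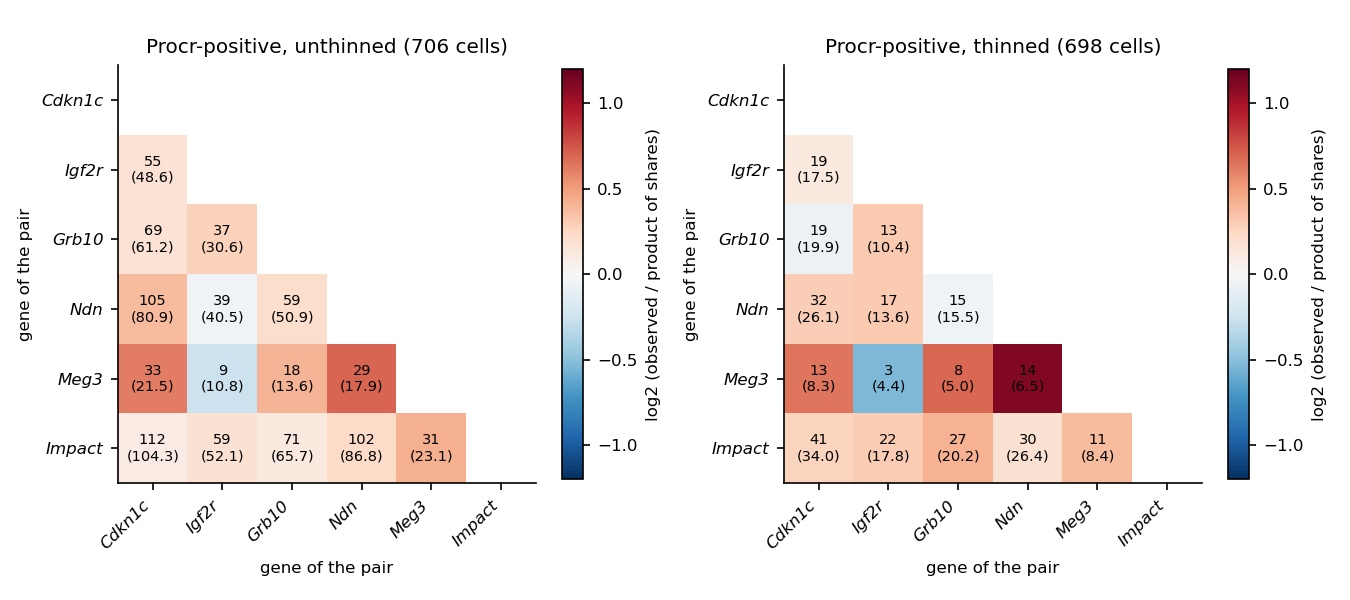
Number of Procr-positive cells in which both genes of a pair were found, with the number given by the product of their shares in brackets, before thinning (706 cells) and after thinning to 5000 UMIs (698 cells). Colour is the log2 ratio of the 2 numbers. The darkest square is Meg3 with Ndn (14 against 6.48 after thinning).

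Leaving out H19 and Plagl1, 147 of 706 Procr-positive cells held none of the other genes, 215 held 1, 184 held 2, 116 held 3, 36 held 4 and 8 held 5. The product of the shares gives 105.8 cells with none and 24.4 with 4. No cell held all 6. At the Meg3 locus detection was shared most closely, as 8 of the 13 Procr-positive cells with Rian also held Meg3, where the product gives 1.07 cells. The 4 cells with Mirg all held Meg3. For Igf2r and its antisense transcript Airn, 12 cells held both against 13.4 from the product, and 6 against 4.24 after thinning. For Cdkn1c and its neighbour Phlda2, 40.5 kb away, 26 cells held both against 27.8.

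The 61 further imprinted genes and locus neighbours that were listed and found in the matrix were set beside the 8 genes. Of these, 31 had at least 50 UMIs in the stem and committed gates together, and 16 of the 31 were at least 2-fold higher in stem-gated cells, 0 at least 2-fold lower. Over all 13307 tested genes, 25.7% were at least 2-fold higher and 1270 genes at least 2-fold lower. The median ratio of the 31 was 2.01, above the 1.245 of all tested genes and below the 15.7 of the members. That median leaves out listed genes with fewer UMIs, and 13 of the 61 had no UMI. The members were chosen with earlier results of these data known, so their higher median is no test. Sgce, a sarcoglycan of the paternally expressed Peg10 cluster, was 12.9 times higher in stem-gated cells (22.2 against 1.71 CPM). Its neighbour Ppp1r9a was 8.70 times higher (52.2 against 5.99 CPM). Near Cdkn1c, the solute carrier Slc22a18 (6.49 times) and the growth inhibitor of the placenta Phlda2 (4.98 times) were higher in stem-gated cells, whereas Kcnq1ot1, the noncoding RNA that silences this domain on the paternal copy, differed by 1.96 times (512.9 against 261.3 CPM). Near Ndn, Mkrn3 (4.06 times) and Peg12 (3.25 times) were higher. Airn, described above, was past 2-fold too (9.24 times). The other genes past 2-fold were Peg13 (5.28 times), Htr2a (4.50 times), Zrsr1 (3.83 times), Herc3 (3.58 times), Osbpl5 (2.58 times), Mcts2 (2.5004 times), Slc22a3 (2.04 times), Trappc9 (2.03 times) and Blcap (2.01 times). Gnas (0.946 times) and Commd1 (0.681 times) were not higher in stem-gated cells. Snrpn, Begain and Peg10 had over 50 UMIs in all cells kept but fewer in the gates compared. Their UMIs in stem and committed cells were 39 and 10 for Snrpn, 16 and 25 for Begain, and 9 and 35 for Peg10. The committed gate holds far more UMIs, so as levels all were higher in stem-gated cells. Snrpn had 4.20 against 0.0752 CPM, Begain 1.72 against 0.188 CPM and Peg10 0.970 against 0.263 CPM.

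The genes whose levels ran most like each member over the stem, multipotent and 6 larger lineage gates were taken by Pearson's r of log2(CPM + 1) among 11573 genes. The gates share 1 library and r over 8 points is only a description. For Cdkn1c they were Zfp612 (0.992), Prdm16 (0.990), a transcription factor known from stem cells, and Rbfox2 (0.988). For Ndn they were Hoxb5 (0.997), which is itself a gating marker, D730003I15Rik (0.995) and Senp8 (0.995). For Meg3 they were Hoxb8 (0.978), the tight junction gene Cldn5 (0.977) and Sult1a1 (0.970). For Grb10 they were Slc7a4 (0.976), Zg16 (0.975) and Bex4 (0.974). For Impact they were Hpgds (0.993), 1110032A03Rik (0.991) and Rab6b (0.987), and for Igf2r E130308A19Rik (0.983), 2610021A01Rik (0.981) and Cdk11b (0.979). No member was among the closest genes of another.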

How the data were processed

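Single-cell RNA-seq of 1 library of sorted Lin-Kit+ cells was used. The authors deposited UMI counts made with Cell Ranger 6.0.2 on mm10 from a 10x Chromium 3′ v3.1 library, which are raw. The labels describe a bulk RNA kit instead, but the counts have the form of a 10x matrix. No column of another sample was used.

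The study's filter was applied: between 1000 and 50000 UMIs, between 1000 and 6500 genes, and mitochondrial UMIs below 7%. Scrublet in scanpy 1.11.5 (expected rate 6%) marked 301 cells (3.94%), which were kept. Lineage gates needed a minimum summed marker level (300 to 5000 CPM) and at least 2 or 3 markers, and these minima were set from the marker distributions after the files were seen. The 8 genes took no part in gating. The members, marker lists and comparisons were chosen with earlier results of these data known. A gene was tested where both gates together held at least 50 UMIs, and called at 2-fold. Ratios have exact conditional binomial intervals, levels exact Poisson intervals and shares Clopper-Pearson intervals (scipy 1.17.1), all covering counting error only. Depth was 1592 to 49991 UMIs per cell kept. Thinning drew UMIs without replacement, and 99 cells under 5000 UMIs were left out of thinned shares.

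Besides the members and gate markers, the text names other imprinted genes with at least 50 UMIs and a 2-fold ratio, and for each member the 3 genes with the highest r among those with at least 200 UMIs. Airn, Igf2, Rian, Mirg, Dlk1, Kcnq1ot1, Gnas and Commd1 were added as locus neighbours or contrasts after their values were seen. On simulated stem and committed sums over 13363 genes, 95.5% of ratio intervals held the true fold, and 192 of 200 changed genes (4-fold either way) lay on the right side of 1. The sums were independent Poisson draws, which is what the intervals assume, so this checks the calculation only. It does not cover UMIs concentrated in few cells, as those of Meg3 are. Coordinates are from GENCODE M21 (GRCm38) and upstream sequences from RefSeq (GRCm38.p6). The alternatives were other cell filters, scalings, gates, thresholds, seeds and depths of thinning, and graph clusters made without the 8 genes.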

Additional observations from a re-analysis of the deposited data

Results flagged for a closer look

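The 1172 barcodes that the cell filter removed are outside the comparisons, and 6 of the 8 genes were found in them above the level that 3 UMIs would give there (0.192 CPM). Igf2r had 21.1 CPM (18.9 to 23.5), close to its stem-gated level of 20.4 CPM. Impact had 16.1 CPM and Grb10 12.4 CPM. Cdkn1c had 3.40 CPM, Ndn 2.5 CPM and Meg3 0.897 CPM, each between its committed-gated and its stem-gated level. H19 and Plagl1 had no UMI in them.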

How the results depend on the processing

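Of 62 alternative values of the counts and pair summaries, 56 stayed within 1.5 times, as did 145 of 169 alternative ratios of single genes within their counting interval, and no ratio past 2-fold changed side of 1. The count of genes at least 2-fold higher in multipotent than in committed cells was 2, and 1 with gates from thinned cells, with graph clusters, or with a neutrophil minimum of 5000 CPM (added after seeing the data). The count higher in stem-gated cells without G2/M UMIs was 1, but 2 with the stricter cell filter, 3 at 1.5-fold and 2 with S-phase genes. Stem over committed ratios ranged over the alternatives from 37.1 to 53.1 for Cdkn1c, 80.3 to 237.3 for Meg3, 23.3 to 31.7 for Ndn, 4.18 to 5.04 for Grb10, 3.14 to 4.73 for Impact and 2.60 to 7.30 for Igf2r. With gates and levels from thinned cells, the stem over multipotent ratio was 6.47 for Cdkn1c and 9.49 for Meg3. There multipotent over committed cells gave 7.81 for Cdkn1c and 3.41 for Igf2r. Both are past 2-fold, while the count of 1 takes in only genes with at least 50 UMIs. With ungated cells counted as multipotent, the multipotent over committed ratio was 8.93 for Cdkn1c and 5.21 for Ndn. The cause of these shifts was not tested.

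No paired analysis was possible because the data are 1 library. Differences between mice, sorts and libraries, and any effect of pIpC or of a transplant, are not covered. H19, Plagl1, Igf2, Rian and Mirg gave too few UMIs for a level to be read in most gates, and low expression and limited depth cannot be told apart for them. A count of 3 UMIs over the stem gate corresponds to 0.323 CPM.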
